A study of Mus musculus with 12 samples.

Results

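The 40 genes described here encode parts of the sarcomere, the contractile unit of striated muscle, and proteins that attach to its Z-disc and to titin. They were taken as a named list and paired with the array's transcript clusters (the probe sets that each measure the RNA of a gene) that carry exactly 1 gene symbol. All 40 had such a cluster, and no gene had more than 1, out of 30412 such clusters on the array for 30084 genes. For the description they were divided by role into 10 fast isoforms, 8 slow isoforms, 9 genes of the thin filament, giant proteins and M-band, 5 genes of Z-disc structure, and 8 titin-associated, stretch-responsive or actin-binding regulators.

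RNA was measured in quadriceps of 12 male mice aged 6 weeks, 1 array per mouse, in 4 groups of 3. All mice, the untreated ones included, were utrn+/-;mdx on the C57BL/10 background: dystrophin is lost through the mdx mutation and utrophin, its relative, is mutated on a single allele, and no healthy muscle was measured. The first group received prednisolone, a synthetic glucocorticoid, at 1.5 mg/kg per day in the drinking water. The second received spironolactone at 100 mg/kg per day plus lisinopril at 20 mg/kg per day, and the third eplerenone at 200 mg/kg per day plus the same dose of lisinopril, both in medicated pellets. Spironolactone and eplerenone block the mineralocorticoid receptor, and lisinopril inhibits angiotensin-converting enzyme. All drugs were given between 4 and 6 weeks of age. The fourth group was untreated and ate normal chow, so pellet or water delivery without drug had no control of its own. The design text names pairwise comparisons between the groups.

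In a sarcomere, thick filaments of myosin slide along thin filaments of actin that are anchored in the Z-disc. Titin spans from the Z-disc to the M-band and acts as a molecular spring, and nebulin runs along the thin filament. Troponin and tropomyosin make contraction depend on calcium. Many of these proteins exist as fast and slow isoforms from separate genes, used in fast-twitch and slow-twitch fibres. Quadriceps of the mouse is mostly fast muscle. Fibres of dystrophin-deficient muscle are easily damaged and go through rounds of degeneration and regeneration.

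Values are log2 signals as deposited. The median over the tested clusters lay between 5.70 and 5.81 in the 12 arrays. Markers of skeletal muscle fibres averaged 16.99 to 17.57 per array over 10 genes, and none of the 10 had a mean below the median of all clusters (5.76). Of 9 markers of heart muscle, 7 had means below it. Every difference is on the log2 scale and is followed by its SE (n = 3 arrays in each group), and "rose" or "fell" is used only for a limma adjusted p under 0.05 over all tested clusters. Array values within a group are listed in the order of replicates 1 to 3. RNA of whole muscle was measured, so fewer fibres and less RNA per fibre cannot be told apart.

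For 7 of the 40 genes the array could show hardly any change. Acta1 (skeletal alpha-actin), Actn3 (the fast-fibre alpha-actinin), Neb (nebulin), Tnnt3 and Tnnc2 (fast troponin T and C), and Myl1 and Mylpf (fast myosin light chains) had means above 19, close to the highest value of the table, 19.93. Acta1 and Myl1 lay at their array's highest value in 11 of 12 arrays, and between 3 and 59 clusters shared that value in an array. The ranges of these 7 genes over all 12 arrays were between 0.02 and 0.36. Their median residual SD was 0.0283, against 0.3 for the other 33 genes and 0.163 for all tested clusters. A small difference in these 7 genes is therefore not a measurement that their RNA stayed constant. The plot of range against level shows where they sit.

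**Figure D1:**
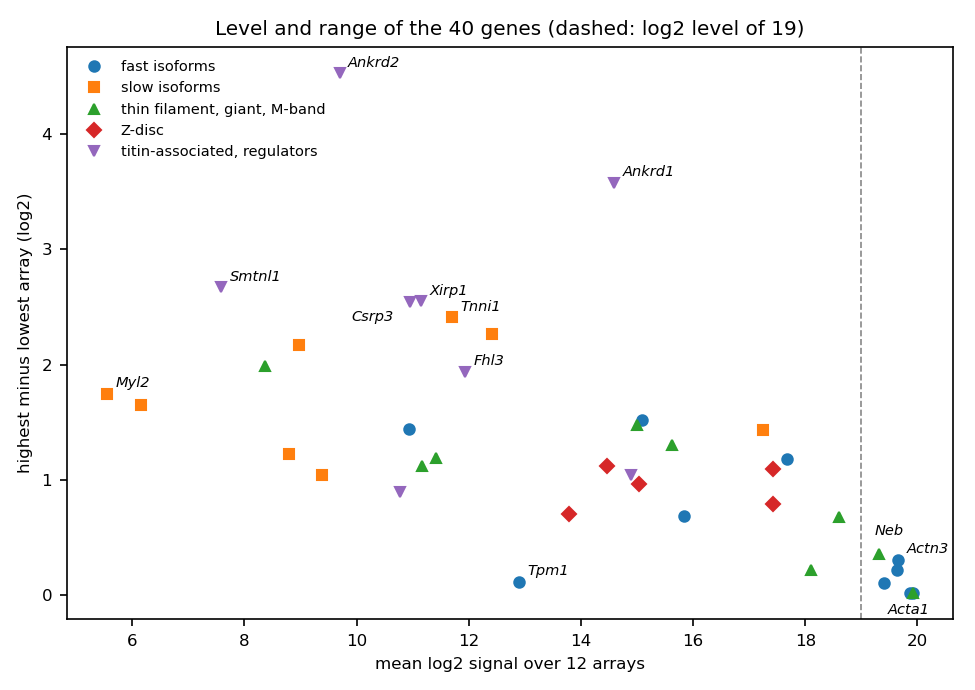
Each point is 1 of the 40 genes: its mean log2 signal over the 12 arrays (horizontal axis) and its highest minus its lowest array in log2 units (vertical axis), with the shape and colour giving the gene group. The 7 genes right of the dashed line at 19 span at most 0.36, while Ankrd2, the widest, spans 4.53; positions on the horizontal axis are places on the scale and do not rank abundance between genes.

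Prednisolone was the treatment under which genes of this list passed the test. Against untreated muscle, 10 of the 40 rose and 0 fell, beside 6.39% of all tested clusters past the threshold in either direction (3.22% upward and 3.17% downward). At an unadjusted p under 0.05 there were 20 of 40, beside 21.6% of all clusters. All members but Myl2 had means above the median of all clusters (5.76), and dim clusters were called less often. With clusters below that median left out, the limma test called 12 members and 2631 of the remaining clusters, in place of 10 and 1942. The share of all clusters is therefore a low background for these genes. The 10 were the LIM-domain gene Fhl3, the smoothelin-like gene Smtnl1, the calcineurin-binding Z-disc gene Myoz1, the M-band genes Myom1 and Myom2, the slow myosin-binding protein C gene Mybpc1, the Z-disc genes Myot and Ldb3, the actin-binding gene Xirp2 and the leiomodin gene Lmod3. The median difference over the 40 was 0.43, against -0.01 over all tested clusters, and 38 of the 40 differences were positive. The members were chosen with results of these data known, so these counts describe the list and are no independent test of it.

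By a fold of at least 2, the size named in the study's design, 9 of the 40 were higher in prednisolone muscle (0.523% of all clusters). For 22 genes every prednisolone array lay above every untreated array (13.4% of all clusters), and for 0 genes every prednisolone array lay below. Without prednisolone replicate 2 the test called 3 of the 40 (Fhl3, Myoz1 and Myom1) and 456 of all clusters, in place of 10 and 1942. The 7 genes no longer called there had differences between 0.57 (Ldb3) and 1.28 (Smtnl1). Without prednisolone replicate 1 it called 5 of the 40 and 656 of all clusters, and without untreated replicate 3 it called 6 and 842. With untreated replicate 1 as the only untreated array it called 0 of the 40 and 146 of all clusters, and the 10 genes had differences between 0.43 and 1.59. In that fit the spread came from the treated groups, so the lone array was assumed to vary as they do. Neutrophil markers averaged 6.69 in that array, against 9.01 and 9.05 in untreated replicates 2 and 3.

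Markers of other cells moved in the same comparison. Of 12 macrophage and monocyte markers 4 fell, with a list mean of 12.0 to 12.45 in prednisolone arrays against 12.59 to 13.27 in untreated arrays. Of 7 fibroblast markers 3 fell, with list means of 13.76 to 13.93 in prednisolone arrays against 14.2 to 14.61 in untreated arrays. Of 10 skeletal fibre markers 3 rose: Cacna1s and Ryr1, the calcium channels of excitation-contraction coupling, and Des, which is counted again further below. List means were 17.46 to 17.57 in prednisolone arrays against 16.99 to 17.26 in untreated arrays. Atp2a1, Eno3, Pvalb, Casq1 and Pygm of this list had means above 19, where the array hides change. Of 8 neutrophil markers 1 fell, Retnlg with -2.54 ± 0.66, and the list's median difference was -1.48, with means of 6.43 to 6.79 in prednisolone arrays against 6.69 to 9.05 in untreated arrays. All 9 adipocyte markers had positive differences with a median of 1.19, yet 0 passed the limma test and 1 had an unadjusted p under 0.05, with means of 9.32 to 11.34 in prednisolone arrays against 8.91 to 9.51 in untreated arrays. Of 7 endothelial markers 1 fell, Cdh5, the cadherin of endothelial junctions, with -1.48 ± 0.26, and list means were 9.88 to 10.04 in prednisolone arrays against 9.93 to 10.92 in untreated arrays. Of 9 markers of satellite cells and regenerating fibres 1 rose, the neonatal myosin heavy chain Myh8, with list means of 9.47 to 10.09 in prednisolone arrays against 8.9 to 9.78 in untreated arrays. Among 8 smooth muscle and pericyte markers 1 fell, Rgs5, with -1.12 ± 0.26. Against untreated muscle the antagonist groups (spironolactone first) gave neutrophil medians of -1.34 and -1.46. All 12 macrophage and monocyte markers had negative differences in both, and Cd14 alone fell (-1.76 ± 0.21 and -1.79 ± 0.21). Satellite cell and regenerating fibre medians were 0.63 and 0.71, beside 0.45 with prednisolone. Fibroblast medians were -0.04 and 0.15. The part of these shifts in the sarcomere gene differences was not tested.

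**Figure D2:**
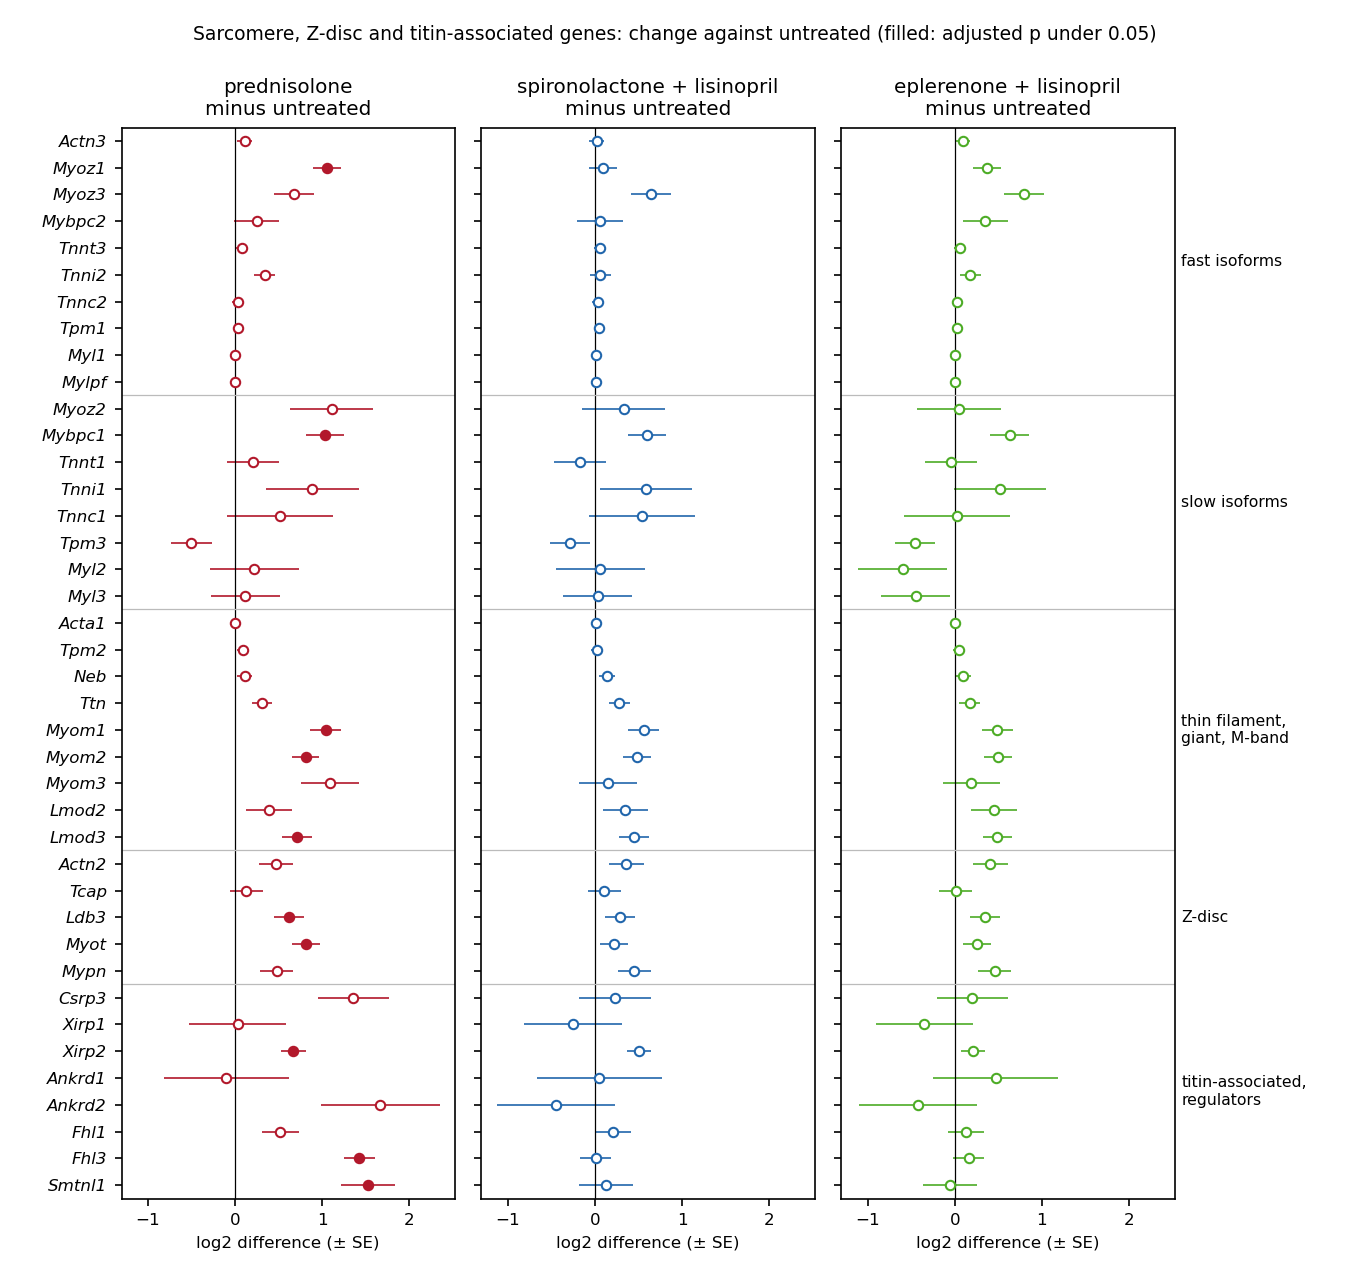
Log2 difference ± SE (n = 3 arrays per group) of each of the 40 genes for prednisolone (left), spironolactone plus lisinopril (middle) and eplerenone plus lisinopril (right), each minus the same 3 untreated arrays. Filled points passed an adjusted p of 0.05: 10 in the prednisolone panel and 0 in each of the other panels.

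Among the titin-associated and actin-binding regulators, 3 of 8 rose with prednisolone and 0 fell, with a median difference of 1.01. Fhl3, a LIM-only protein that binds actin filaments, measured 12.87, 13.27 and 12.76 in prednisolone muscle, against 11.76, 11.48 and 11.39 in untreated muscle. Every prednisolone array was about a log2 unit or more above every untreated array. The difference was 1.43 ± 0.18 (2.69-fold, adjusted p = 0.00338). In the antagonist groups Fhl3 measured 11.33, 11.96 and 11.36 with spironolactone plus lisinopril and 11.59, 11.79 and 11.73 with eplerenone plus lisinopril. These 6 arrays overlapped the untreated range or lay just outside it.

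Smtnl1, which binds tropomyosin and calmodulin and is a target of cyclic nucleotide-dependent kinases, measured 8.35, 9.23 and 8.58 in prednisolone muscle, against 7.13, 7.53 and 6.91 in untreated muscle. The groups did not overlap, and the difference was 1.53 ± 0.31 (2.89-fold, adjusted p = 0.0181). With spironolactone plus lisinopril Smtnl1 spread over more than a log2 unit, at 7.81, 7.58 and 6.56, and with eplerenone plus lisinopril it measured 7.28, 7.07 and 7.02. Xirp2, an actin-binding Xin-repeat protein, measured 15.14, 15.33 and 15.18 in prednisolone muscle, against 14.61, 14.29 and 14.75 in untreated muscle. Its difference was smaller but came with tight replicates, at 0.67 ± 0.14 (1.59-fold, adjusted p = 0.0179). Xirp2 measured 15.17, 15.16 and 14.86 with spironolactone plus lisinopril, all above the untreated arrays, and 14.68, 14.94 and 14.66 with eplerenone plus lisinopril.

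Ankrd2 and Csrp3 had large differences that did not pass. Ankrd2, a titin-binding ankyrin-repeat protein induced by stretch, measured 10.55, 11.6 and 11.36 in prednisolone muscle, against 8.84, 9.63 and 10.05 in untreated muscle. The groups did not overlap, yet the difference of 1.67 ± 0.68 had an adjusted p of 0.182. The SE is shared by all groups, and with spironolactone plus lisinopril replicate 3 stood at 7.07 beside 9.99 and 10.1. Ankrd2 also did not pass when only the prednisolone and untreated arrays were fitted. The part of the array at 7.07 in the result was not tested. Csrp3, the muscle LIM protein of the Z-disc, measured 11.22, 12.39 and 11.98 in prednisolone muscle, against 9.84, 10.97 and 10.69 in untreated muscle. Its groups did not overlap either, with a difference of 1.36 ± 0.41 (adjusted p = 0.0746). Fhl1, a LIM-only protein associated with titin, differed by 0.52 ± 0.21 (adjusted p = 0.175).

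Ankrd1 and Xirp1, both known for induction in injured or regenerating fibres, varied most among untreated mice. Ankrd1 measured 14.91, 13.9 and 14.34 in prednisolone muscle, against 13.07, 13.74 and 16.65 in untreated muscle, so untreated replicate 3 alone lay above all the others. Its difference was -0.10 ± 0.72. Xirp1 measured 11.0, 11.31 and 11.66 in prednisolone muscle, against 10.08, 11.15 and 12.63 in untreated muscle. Untreated replicate 3 was again the highest of the 12 arrays, and the difference was 0.03 ± 0.56.

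In the M-band and thin filament group 3 of 9 rose with prednisolone and 0 fell, with a median difference of 0.39. Myom1, the myomesin that cross-links thick filaments in the M-band, measured 15.66, 15.6 and 15.31 in prednisolone muscle, against 14.66, 14.17 and 14.61 in untreated muscle. The difference was 1.04 ± 0.18 (2.06-fold, adjusted p = 0.00903). Myom2, the M-protein of fast fibres, measured 16.12, 16.08 and 15.78 in prednisolone muscle, against 15.3, 14.82 and 15.41 in untreated muscle, a difference of 0.81 ± 0.16 (adjusted p = 0.0172). For both genes the prednisolone and untreated ranges were separate, and untreated replicate 2 was the lowest array.

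The antagonist arrays of both M-band genes lay between those ranges or reached into the prednisolone range. Myom1 measured 15.06, 15.26 and 14.79 with spironolactone plus lisinopril and 14.77, 15.27 and 14.88 with eplerenone plus lisinopril. Myom2 measured 15.66, 15.82 and 15.52 with spironolactone plus lisinopril and 15.53, 15.88 and 15.61 with eplerenone plus lisinopril. Myom3, the myomesin found mainly in intermediate and slow fibres, differed by 1.09 ± 0.33 with prednisolone, with separate ranges and an adjusted p of 0.0741.

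Lmod3, a leiomodin that nucleates and elongates thin filaments, measured 11.17, 11.68 and 11.55 in prednisolone muscle, against 10.93, 10.8 and 10.56 in untreated muscle. The difference was 0.71 ± 0.17 (adjusted p = 0.036), and the lowest prednisolone array lay close to the highest untreated one. Lmod3 measured 11.38, 11.4 and 10.84 with spironolactone plus lisinopril and 11.33, 11.29 and 11.12 with eplerenone plus lisinopril. Its relative Lmod2 differed by 0.39 ± 0.26 with overlapping groups. Titin itself (Ttn) measured 18.64, 18.87 and 18.66 in prednisolone muscle, against 18.59, 18.18 and 18.45 in untreated muscle, a difference of 0.31 ± 0.12 (adjusted p = 0.14). Tpm2, the beta-tropomyosin, spanned only 0.22 over the 12 arrays and differed by 0.09 ± 0.07. Its residual SD was only 0.046, so this small difference is not read as constant RNA. Neb and Acta1 could not be read because of the top of the scale.

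Of the 5 Z-disc genes 2 rose with prednisolone, and the median difference was 0.48. Myot, myotilin, an actin cross-linker, measured 17.92, 18.09 and 17.78 in prednisolone muscle, against 17.2, 17.03 and 17.08 in untreated muscle. Its difference was 0.82 ± 0.16 (1.77-fold, adjusted p = 0.0137), with a wide gap between the groups. Myot measured 17.46, 17.55 and 16.98 with spironolactone plus lisinopril and 17.44, 17.54 and 17.13 with eplerenone plus lisinopril, below every prednisolone array.

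Ldb3, the PDZ-LIM protein that binds alpha-actinin, measured 15.36, 15.44 and 15.22 in prednisolone muscle, against 14.91, 14.47 and 14.77 in untreated muscle. The difference of 0.62 ± 0.17 was the nearest to the threshold (adjusted p = 0.0492) and passed under 5 of 17 alternative settings. Ldb3 measured 15.04, 15.34 and 14.65 with spironolactone plus lisinopril and 15.01, 15.2 and 15.0 with eplerenone plus lisinopril. Mypn (myopalladin, which links nebulin and titin to the Z-disc) differed by 0.48 ± 0.19 and Actn2 (alpha-actinin) by 0.47 ± 0.20, both with separate ranges and without passing. Tcap, telethonin, which caps the end of titin, differed by 0.13 ± 0.19 with overlapping groups.

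**Figure D3:**
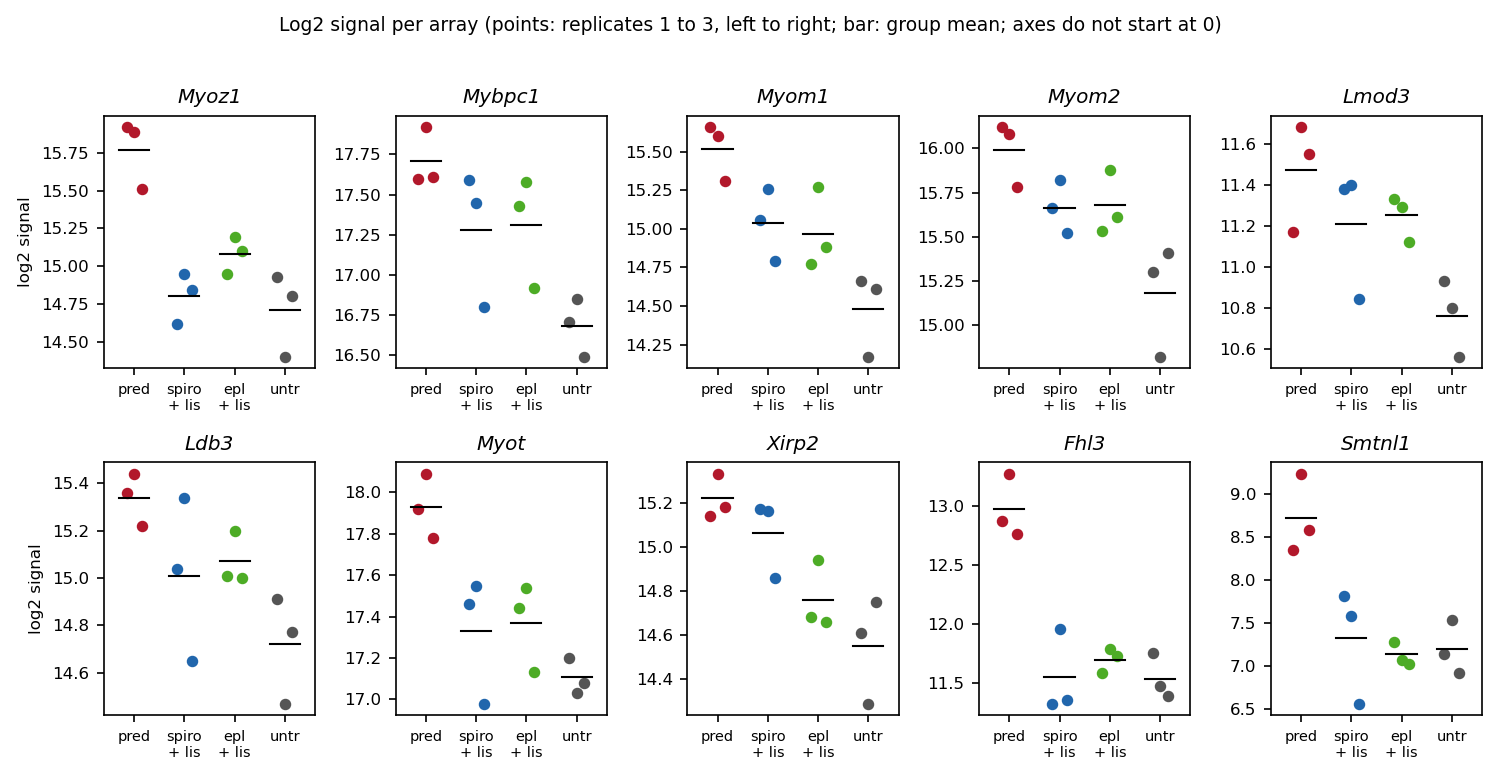
Log2 signal in each of the 12 arrays for the 10 genes that rose with prednisolone against untreated muscle, with a panel per gene, points for replicates 1 to 3 and a bar for the group mean (pred: prednisolone, spiro + lis: spironolactone plus lisinopril, epl + lis: eplerenone plus lisinopril, untr: untreated). In all 10 panels the prednisolone points lie above the untreated points. For Fhl3, Smtnl1, Myoz1 and Myot, and only just for Myom1 and Mybpc1, they also lie above all 6 antagonist points.

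Among the 10 fast isoforms 1 rose with prednisolone. Myoz1, the calsarcin of fast fibres that ties calcineurin to alpha-actinin, measured 15.92, 15.89 and 15.51 in prednisolone muscle, against 14.93, 14.4 and 14.8 in untreated muscle. The difference was 1.06 ± 0.16 (2.09-fold, adjusted p = 0.00509), with separate ranges. Myoz1 measured 14.62, 14.95 and 14.84 with spironolactone plus lisinopril and 14.95, 15.19 and 15.1 with eplerenone plus lisinopril. Myoz3, another calsarcin of fast fibres, measured 11.18, 11.27 and 10.82 in prednisolone muscle, against 10.77, 10.02 and 10.45 in untreated muscle. Its difference of 0.68 ± 0.23 did not pass (adjusted p = 0.106).

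Tnni2, fast troponin I, differed by 0.34 ± 0.12 (adjusted p = 0.116), with separate ranges. Mybpc2, the fast myosin-binding protein C, differed by 0.25 ± 0.26 with overlapping groups. Tpm1, the alpha-tropomyosin, spanned only 0.12 over the 12 arrays and differed by 0.04 ± 0.06. Its residual SD was 0.024, against a median of 0.3 for genes away from the top of the scale. Its small difference is therefore not read as constant RNA either. The other 5 fast genes were those near the top of the scale, with differences from 0 to 0.11, so the fast group's median of 0.10 rests in large part on genes that the array could not resolve.

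Among the 8 slow isoforms 1 rose with prednisolone, and the median difference was 0.37. That median moved with single arrays: it was 0.85 without prednisolone replicate 1, 0.84 without untreated replicate 2, 0.20 without prednisolone replicate 2, 0.22 without prednisolone replicate 3 or untreated replicate 1, and 0.13 without untreated replicate 3. Mybpc1, the slow myosin-binding protein C, measured 17.6, 17.92 and 17.61 in prednisolone muscle, against 16.71, 16.85 and 16.49 in untreated muscle. The groups were well apart, with a difference of 1.03 ± 0.22 (2.04-fold, adjusted p = 0.0211). Mybpc1 measured 17.59, 17.45 and 16.8 with spironolactone plus lisinopril and 17.43, 17.58 and 16.92 with eplerenone plus lisinopril. In each antagonist group replicate 3 lay below its partners. With spironolactone plus lisinopril it was inside the untreated range, and with eplerenone plus lisinopril just above it.

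The other slow genes spread widely between mice of the same group. Myoz2, the calsarcin of slow fibres, measured 12.77, 13.56 and 13.12 in prednisolone muscle, against 12.12, 12.59 and 11.42 in untreated muscle, a difference of 1.11 ± 0.48 (adjusted p = 0.206). Tnni1, slow troponin I, measured 11.17, 12.53 and 12.57 in prednisolone muscle, against 11.01, 12.41 and 10.16 in untreated muscle. Here the groups overlapped, and the difference of 0.89 ± 0.53 did not pass. Tnnc1 (slow troponin C) differed by 0.52 ± 0.61, Tnnt1 (slow troponin T) by 0.21 ± 0.30, and the slow myosin light chains Myl2 and Myl3 by 0.22 ± 0.51 and 0.12 ± 0.40. Tpm3, the slow tropomyosin gene, which also makes tropomyosins of other cells, was the only slow gene with a negative difference, at -0.50 ± 0.23 (adjusted p = 0.25).

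Slow genes moved together from mouse to mouse within groups. Prednisolone replicate 1 was the lowest of its group for 8 of 8 slow genes, and so was spironolactone plus lisinopril replicate 3. Their low position was not confined to slow genes. The prednisolone array was lowest for 22 of all 40 genes, with 6 of 8 regulators. The spironolactone plus lisinopril array was lowest for 30 of 40, with 9 of 9 thin filament and M-band genes and 5 of 5 Z-disc genes. Each was lowest for 2 of 10 fast genes. Untreated replicate 2 was the highest of its group for 7 of 8 slow genes, while it was the lowest for 7 of 10 fast genes and 5 of 5 Z-disc genes. The slow myosin heavy chain Myh7, which is outside the list, measured 6.38, 8.28 and 8.35 in prednisolone muscle and 8.84, 8.7 and 6.07 with spironolactone plus lisinopril, and was lowest in those same mice. It measured 7.57, 6.37 and 6.28 with eplerenone plus lisinopril, and 6.72, 7.55 and 6.82 in untreated muscle, where replicate 2 was highest.

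Adipocyte markers were highest in the prednisolone and the spironolactone plus lisinopril mouse with the lowest slow-gene signals, but not in the other 2 groups. The mean of 9 such markers was 11.34 in prednisolone replicate 1, against 9.32 and 9.93 in its partners. It was 12.0 in spironolactone plus lisinopril replicate 3, against 10.28 and 9.31 in its partners. With eplerenone plus lisinopril it was 9.24, 9.76 and 10.28, highest in replicate 3, while replicate 2 was the lowest for 5 of 8 slow genes. In untreated muscle it was 9.51, 8.91 and 9.35, highest in replicate 1, while replicate 3 was the lowest for 6 of 8 slow genes. The part of these differences in the slow-gene values was not tested, and the labels do not say how the piece of muscle was taken.

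**Figure D4:**
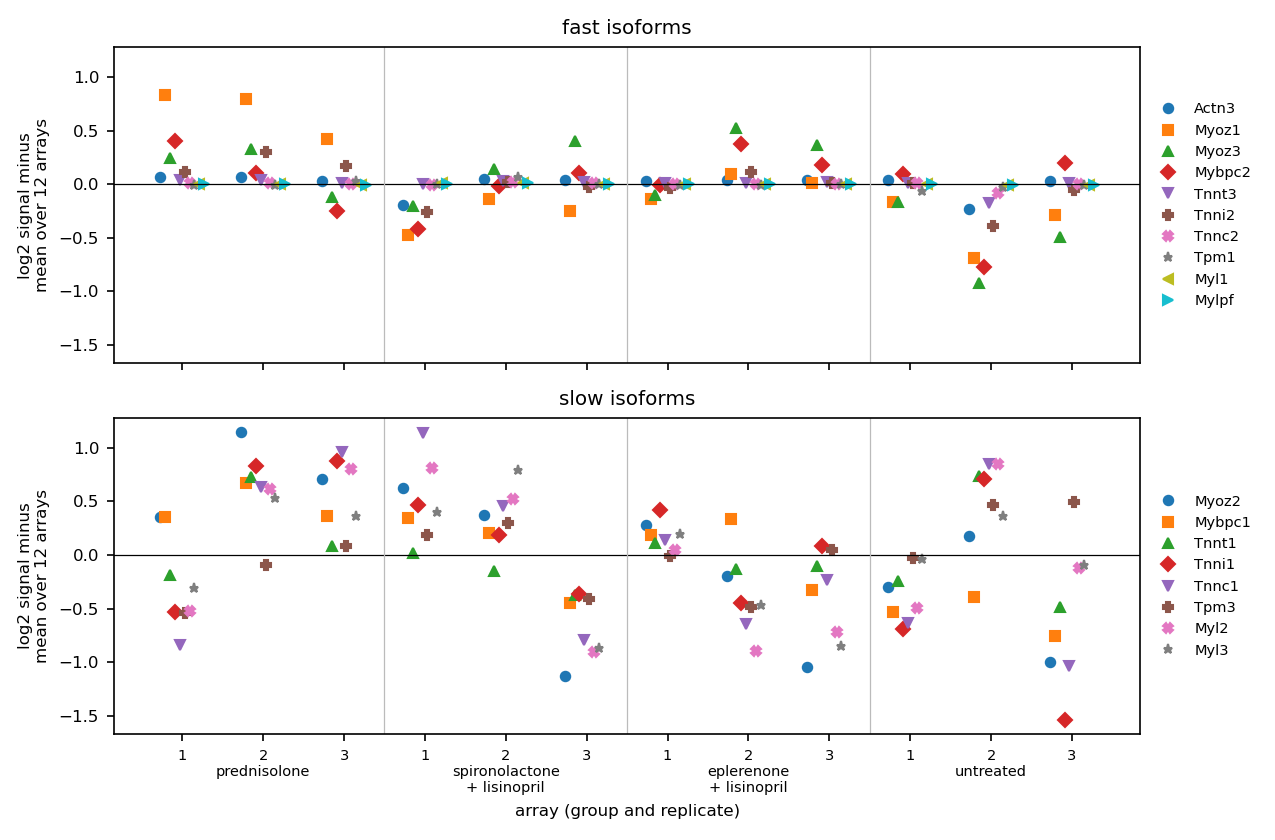
Log2 signal minus the gene's mean over the 12 arrays, for each array (horizontal axis, by group and replicate), for the 10 fast isoforms (top) and the 8 slow isoforms (bottom), with a symbol per gene. The slow genes lie low together in prednisolone replicate 1 (except Myoz2 and Mybpc1, which lie above their means) and in spironolactone plus lisinopril replicate 3, and mostly high in untreated replicate 2, where several fast genes lie low.

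Set pair by pair, the difference between prednisolone and untreated muscle was larger for the slow than for the fast gene in each of the 7 pairs, but for 4 of these pairs the fast gene lay near the top of the scale. For the myosin-binding proteins C the fast gene Mybpc2 differed by 0.25 and the slow gene Mybpc1 by 1.03. For troponin I the values were 0.34 for Tnni2 and 0.89 for Tnni1. For the calsarcins they were 1.06 for Myoz1 and 1.11 for Myoz2, a difference between the pair of -0.05. In troponin T, troponin C and both kinds of light chain the fast gene differed by at most 0.08. With spironolactone plus lisinopril against untreated muscle the slow gene had the larger difference in 6 of the 7 pairs, with troponin T the other way. The group medians were 0.05 for fast and 0.20 for slow genes. With eplerenone plus lisinopril the fast gene had the larger difference in 4 pairs (troponin T, both kinds of light chain and the calsarcins), the slow gene in 2, and troponin C gave equal values, with medians of 0.08 for fast and -0.01 for slow genes. The difference within pairs was not tested.

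Sarcomere genes outside the list were counted for context, from lists that were also chosen with results of these data known. Of 35 measured further sarcomere and Z-disc genes 12 rose with prednisolone and 0 fell (3.22% and 3.17% of all clusters), with a median difference of 0.42. They included Synpo2l, an actin-bundling Z-disc protein, with 1.06 ± 0.16, Des, the muscle intermediate filament protein desmin, with 0.52 ± 0.08, and Tmod4, the tropomodulin that caps thin filaments in skeletal muscle, with 0.68 ± 0.14. Speg and Trim54, a kinase and a ring-finger protein of the sarcomere, rose by 0.82 ± 0.16 and 0.93 ± 0.18. Against untreated muscle 0 of these 35 passed with either antagonist combination. Their medians were still positive, at 0.24 with spironolactone plus lisinopril and 0.32 with eplerenone plus lisinopril. An unadjusted limma p under 0.05 was reached by 22 with prednisolone (21.6% of all clusters). It was reached by 15 with spironolactone plus lisinopril (16.2%) and 18 with eplerenone plus lisinopril (13.4%). Of 10 embryonic, neonatal and cardiac isoforms 1 rose, the neonatal myosin heavy chain Myh8 with 0.93 ± 0.21. Of 5 adult skeletal myosin heavy chains 0 passed the limma test, though 2 had an unadjusted p under 0.05. Myh1, near the top of the scale with array values of 19.04 to 19.46, differed by 0.30 ± 0.10 (adjusted p = 0.103). Myh2 differed by 0.59 ± 0.37 and Myh7 by 0.64 ± 0.74, and Myh4 lay at the top of the scale.

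The sequence before the transcription start was read for the genes that rose, because genes of the sarcomere share known control elements. These are the E-box (CANNTG) bound by myogenic factors such as MyoD, the site of the MEF2 factors, the CArG box of serum response factor, and the M-CAT element (CATTCC) of the TEAD factors. RefSeq promoter entries on GRCm38.p6 were found for 29 of the 40 genes (35 promoters) and 6 of the 10 that rose (7 promoters), and the 250 bases before the start were searched on both strands. Below are the windows of Fhl3 and Smtnl1, which had the largest differences among the 10, of Myom1, which has a CArG box, and of Xirp2, which has a MEF2 site, 5′ to 3′ along the gene's strand, with the matches in capitals.
Fhl3 promoter (chr4:124700449-124700698, plus strand): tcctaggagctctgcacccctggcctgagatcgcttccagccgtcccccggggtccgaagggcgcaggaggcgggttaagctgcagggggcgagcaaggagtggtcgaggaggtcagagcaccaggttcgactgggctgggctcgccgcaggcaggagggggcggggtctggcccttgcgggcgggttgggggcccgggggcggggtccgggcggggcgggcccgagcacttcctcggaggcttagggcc
Smtnl1 promoter (chr2:84822653-84822902, minus strand): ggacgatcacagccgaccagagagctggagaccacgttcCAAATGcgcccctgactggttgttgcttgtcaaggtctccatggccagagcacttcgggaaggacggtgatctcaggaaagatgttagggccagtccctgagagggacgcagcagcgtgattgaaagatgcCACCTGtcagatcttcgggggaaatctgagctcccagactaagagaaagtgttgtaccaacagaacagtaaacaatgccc
Myom1 promoter (chr17:71019307-71019556, plus strand): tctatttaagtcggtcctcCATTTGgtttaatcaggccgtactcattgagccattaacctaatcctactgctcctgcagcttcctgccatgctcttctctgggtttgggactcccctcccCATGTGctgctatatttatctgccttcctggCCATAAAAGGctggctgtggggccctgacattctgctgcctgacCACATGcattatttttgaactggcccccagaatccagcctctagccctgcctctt
Xirp2 promoter (chr2:67445752-67446001, plus strand): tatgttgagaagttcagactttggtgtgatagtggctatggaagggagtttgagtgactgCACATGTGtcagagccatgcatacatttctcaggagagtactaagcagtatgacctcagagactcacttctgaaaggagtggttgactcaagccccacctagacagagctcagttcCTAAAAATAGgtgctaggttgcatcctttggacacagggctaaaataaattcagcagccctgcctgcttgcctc

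The Fhl3 window held none of the searched motifs. The Smtnl1 window held 2 E-boxes, and the Myom1 window held 3 E-boxes and a CArG box that starts at position -99 from the transcription start. In Xirp2 2 overlapping E-boxes form the first capital stretch, and the MEF2 site is the second. Over all 35 promoters of the list, 91.4% held an E-box, against 66.2% of 32851 promoters in the table. A CArG box was in 17.1% of the list's promoters against 1.47% of all, a MEF2 site in 11.4% against 2.92%, and an M-CAT element in 22.9% against 12.6%. Of the 7 promoters of genes that rose, 4 held an E-box and 3 a CArG box, of which 2 are overlapping windows of Ldb3. The core of a glucocorticoid receptor site (ACANNNTGT) was in 0 of these 7, in 2.86% of the list's promoters and in 5.84% of all. These are matches of letters in short windows and are no evidence of binding, nor of its absence.

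The mineralocorticoid receptor antagonists gave no call in the list against untreated muscle. With spironolactone plus lisinopril 0 of 40 passed the limma test (0.0822% of all clusters passed). At an unadjusted p under 0.05 there were 8 of 40 (16.2% of all clusters). The median difference was 0.12, against -0.04 over all clusters, and 36 differences were positive. The smallest adjusted p was 0.171, for Xirp2, with a difference of 0.51 ± 0.14. The M-band genes Myom1, with 0.56 ± 0.18, and Myom2, with 0.48 ± 0.16, also had separate ranges. In all, 8 genes had every spironolactone plus lisinopril array above every untreated array (7.35% of all clusters), 4 of them genes near the top of the scale.

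With eplerenone plus lisinopril 0 of 40 passed the limma test (0.0296% of all clusters passed), and 7 had an unadjusted p under 0.05 (13.4% of all clusters). The median difference was 0.15, against -0.03 over all clusters, and 33 differences were positive. Myoz3 had the smallest adjusted p, 0.23, with a difference of 0.79 ± 0.23. It measured 10.84, 11.46 and 11.31 with eplerenone plus lisinopril, all above the untreated 10.77, 10.02 and 10.45. Myom1 differed by 0.49 ± 0.18, Myom2 by 0.50 ± 0.16, Lmod3 by 0.49 ± 0.17 and Mybpc1 by 0.63 ± 0.22, each with separate ranges. In all, 11 genes had separate ranges in the upward direction (7.70% of all clusters). Fhl3 and Smtnl1 differed by 0.16 ± 0.18 and -0.06 ± 0.31. The 3 comparisons with untreated muscle share the same untreated arrays, so like values in them are not independent.

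In direct comparisons between treatments the differences do not use the untreated arrays, but the SE, which is shared by all groups, does. Prednisolone muscle was higher than spironolactone plus lisinopril muscle in Fhl3, by 1.42 ± 0.18 (adjusted p = 0.0106), and in Myoz1, by 0.97 ± 0.16 (adjusted p = 0.0264). These 2 of 40 stood beside 0.822% of all clusters past the threshold (0.372% upward), and 0 of 40 fell. Without prednisolone replicate 2, or without spironolactone plus lisinopril replicate 1, 0 of 40 passed. Leaving out prednisolone replicate 1, or replicate 2 or 3 of spironolactone plus lisinopril, kept Fhl3 alone. Fitted on the 6 arrays of the groups compared, 0 of 40 passed. Myot differed by 0.60 ± 0.16 (adjusted p = 0.0954), Smtnl1 by 1.40 ± 0.31 (adjusted p = 0.0646) and Ankrd2 by 2.12 ± 0.68 (adjusted p = 0.16), each with separate ranges.

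Prednisolone muscle was higher than eplerenone plus lisinopril muscle in Fhl3, by 1.26 ± 0.18 (adjusted p = 0.017), the only 1 of 40 past the threshold beside 0.608% of all clusters (0.233% upward). Leaving out prednisolone replicate 1 or 2, or any of the 3 eplerenone plus lisinopril arrays, brought the count to 0. Fitted on the 6 arrays of the groups compared, 3 passed (Fhl3, Smtnl1 and Ankrd2). Smtnl1 differed by 1.60 ± 0.31 (adjusted p = 0.0521) and Myoz1 by 0.69 ± 0.16 (adjusted p = 0.0878), each with separate ranges. The M-band gene Myom2 and the thin filament gene Lmod3, which rose against untreated muscle, differed by 0.32 ± 0.16 and 0.22 ± 0.17 from eplerenone plus lisinopril muscle, with overlapping groups. Their differences from spironolactone plus lisinopril muscle were 0.33 ± 0.16 and 0.26 ± 0.17, with overlap as well.

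The antagonist combinations were also compared with each other, although their doses differ (spironolactone at 100 and eplerenone at 200 mg/kg per day). Of the 40 genes 0 passed the limma test, as did 0% of all clusters, with a smallest adjusted p of 0.998. At an unadjusted p under 0.05 there was 1 gene, Xirp2, against 4.49% of all clusters. The largest difference was 0.66 ± 0.51 for Myl2. The 95% interval of the difference lay within ±1 log2 unit for 32 genes and within ±0.5 for 18. These counts include the 7 genes near the top of the scale, where the array hides change, and among the other 33 genes they were 25 and 11. For Ankrd1 it ran from -2.01 to 1.16, so differences of that size were not measurable there.

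Asked over all 4 groups at once, the limma F-test called 3 of 40 genes, against 1.93% of all clusters: Fhl3 (adjusted p = 0.0107), Myoz1 (adjusted p = 0.021) and Smtnl1 (adjusted p = 0.0491). Myom1 was just outside, at 0.0516, followed by Myot at 0.0637. Without spironolactone plus lisinopril replicate 3, which was the lowest of its group for 30 of the 40 genes, the count was 8. Without prednisolone replicate 1 or 2 it was 0.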

How the data were processed

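Quadriceps RNA of 12 mice was hybridised to 1-channel Affymetrix arrays. The authors deposited log2 signals, for which the submitters' processing notes name RMA, Transcriptome Analysis Console and Affymetrix Expression Console. Their versions, the annotation and the build are not stated. Between 1.27% and 1.34% of an array's clusters lie above 16, the log2 limit of a 16-bit scanner. An unstated step must therefore have rescaled them, and a fold is a fold on the deposited scale. Detection calls were not used here.

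Of 65587 transcript clusters, 30412 carry exactly 1 symbol in the platform annotation (a symbol written repeatedly counted once), 2118 several and 33057 none. Group means were fitted to these 30412 clusters over the 12 arrays in R 4.3.3 using limma 3.58.1 (lmFit, eBayes without trend, two-sided, Benjamini-Hochberg over all clusters, threshold 0.05), with 8 residual and 2.94 prior degrees of freedom and a median SE of 0.13. With 3 against 3 arrays the smallest p of an exact permutation test is 0.1. The method was tested on simulated data.

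The member list, its subgroups, the other gene lists and the alternatives were chosen with earlier results of these data known. Named were all members past the threshold with their array values, at least the 4 members of smallest F-test p per subgroup, every fast and slow pair, and up to 8 genes past the threshold per further sarcomere list. List genes without a cluster of exactly 1 symbol were left out of the counts. The self-made alternatives were normalization, a filter on dim clusters, the variance model, array weights, the clusters tested, the arrays in the fit, the replicate number as a block, and leaving out arrays. Promoter sequences are RefSeq's on GRCm38.p6, and proteins were not used here.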

Additional observations from a re-analysis of the deposited data

How the results depend on the processing

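The count of 10 genes that rose with prednisolone was 7 under quantile normalization, 9 with equal array medians, 12 without dim clusters, 10 with an intensity trend, 9 with robust hyperparameters, 11 with array weights, 8 over all clusters of the table and 10 with 1 cluster per gene. It was 6 when only the 6 arrays of the 2 groups were fitted, 0 with untreated replicate 1 as the only control, and 3 to 10 when single arrays were left out. Over all clusters 1942 were called, against 146 with that lone control, whose spread was taken from the treated groups, and 456 to 2643 without single arrays. No difference of a called gene changed sign. Of 17 alternatives, Fhl3, Myoz1 and Myom1 passed in 16 each, Smtnl1 in 14, Myom2 and Myot in 13 each, Mybpc1 and Xirp2 in 12 each, Lmod3 in 10 and Ldb3 in 5. A restriction to genes with a mean below 19, chosen after seeing the data, leaves the count at 10 by construction. None of the genes it removes was among the 10.

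For prednisolone against spironolactone plus lisinopril the count of 2 was 0 with only the groups compared, and 0 to 2 without single arrays. Against eplerenone plus lisinopril the count of 1 was 2 without dim clusters, 2 with array weights, 3 with only the groups compared, and 0 to 1 without single arrays. The F-test count of 3 was 6 without dim clusters, 6 with array weights, 1 with untreated replicate 1 as the only control, and 0 to 8 without single arrays. The other comparisons gave 0 in every alternative run.

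Replicate numbers recur across groups. Deviations from group means of same-numbered arrays correlated between -0.24 and 0.16 (18 pairs, 3 above 0.1), and those of other pairs between -0.30 and 0.27. Same-numbered pairs thus did not correlate higher than other pairs. With 3 arrays in each group these values cannot exclude an effect shared by a replicate number, nor tell whether the mice were matched. With the number as a replicate block the counts were 9 for prednisolone against untreated, 1 against spironolactone plus lisinopril (Fhl3, as Myoz1 had an adjusted p of 0.0669), and 4 for the F-test.

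Of 255 alternative medians of the 5 subgroups 12 moved by more than the replicate spread. The fast median for prednisolone against untreated was 0.02 with untreated replicate 1 alone and 0.02 to 0.14 without single arrays. Under quantile normalization the fast medians were 0.14 for spironolactone plus lisinopril and 0.17 for eplerenone plus lisinopril against untreated. The median of the thin filament and M-band genes for prednisolone was 0.54 with untreated replicate 1 alone and 0.34 to 0.63 without single arrays. For spironolactone plus lisinopril it was 0.14 to 0.53 without single arrays, and for eplerenone plus lisinopril 0.39 under quantile normalization, 0.32 with untreated replicate 1 alone and 0.17 to 0.32 without single arrays. The regulators' median for spironolactone plus lisinopril was -0.07 to 0.46 without single arrays. Without single arrays the slow median was 0.13 to 0.85 for prednisolone, -0.06 to 0.70 for spironolactone plus lisinopril and -0.32 to 0.33 for eplerenone plus lisinopril. The cause of these shifts was not tested. The small number of arrays limits precision, and the top of the scale hides change in 7 genes.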
